A study of Mus musculus with 28 samples.

Results

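A set of 9 macrophage cytokine genes was followed across 28 RNA-seq libraries: Tnf, Il6, Il12b, Il27, Ebi3, Il15, Il10, Tgfb1 and Il18bp. They were chosen by name, as inflammatory and regulatory products of macrophages, and all 9 were found among the 55487 Ensembl gene IDs of the deposited tables. Of the 9, 7 reached at least 1 TPM in at least 4 of the 28 libraries and entered the tests, while Il6 and Il12b did not. TPM is a transcript's share of a library, corrected for its length, so levels of different genes can be set side by side.

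The cells were macrophages grown from the bone marrow of wild-type mice, with 4 libraries in each of 7 groups. M0 macrophages received no polarizing cytokine. The others received IFN-γ or IL-10 at 50 ng/mL for 48 h and met T cells that had been killed with ATP or NAD and stained with a fluorescent antibody against CD4. After the co-culture they were sorted into cells that had taken up regulatory T cells (Treg-phagocytic), cells that had taken up conventional CD4 T cells (Tconv-phagocytic) and cells that had taken up neither (non-phagocytic). The M0 labels name no T cells and no uptake status, so in a comparison with M0 the cytokine cannot be told apart from co-culture and sorting. No label says that replicates came from separate mice or cultures, so p-values measure only the spread between these libraries. Phagocytic libraries are named by the dye (BV421 or Ax647) and number in their titles. The dye in the library names is the opposite one for all 8 Treg-phagocytic libraries.

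Macrophages release cytokines that drive inflammation and cytokines that restrain it, and the balance depends on the signals they receive. IFN-γ primes inflammatory genes, whereas IL-10 restrains them. Uptake of dying cells is known to favour TGF-β and IL-10 over TNF in many macrophage cultures.

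The 10 macrophage markers summed to between 16750 and 21540 TPM in every library. The 15 T cell markers, among them Cd3e, Cd4 and Trac, were at 46.1 to 151.6 TPM in M0, 86.9 to 103.3 in IL-10 non-phagocytic, 120.0 to 174.3 in IL-10 Tconv-phagocytic and 197.9 to 237.7 in IL-10 Treg-phagocytic libraries. In the 12 IFN-γ libraries they were at 535.8 to 1037 TPM, whichever T cell had been taken up and also where none had. Set against the deepest library, IFN-γ libraries had 11.4% to 23.9% of its estimated depth, IL-10 libraries 49.0% to 89.7% and M0 libraries 68.5% to 100%. In these bulk libraries a transcript of the macrophage and one carried by T cell material cannot be told apart, nor can fewer cells expressing a gene and less RNA per cell.

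**Figure D1:**
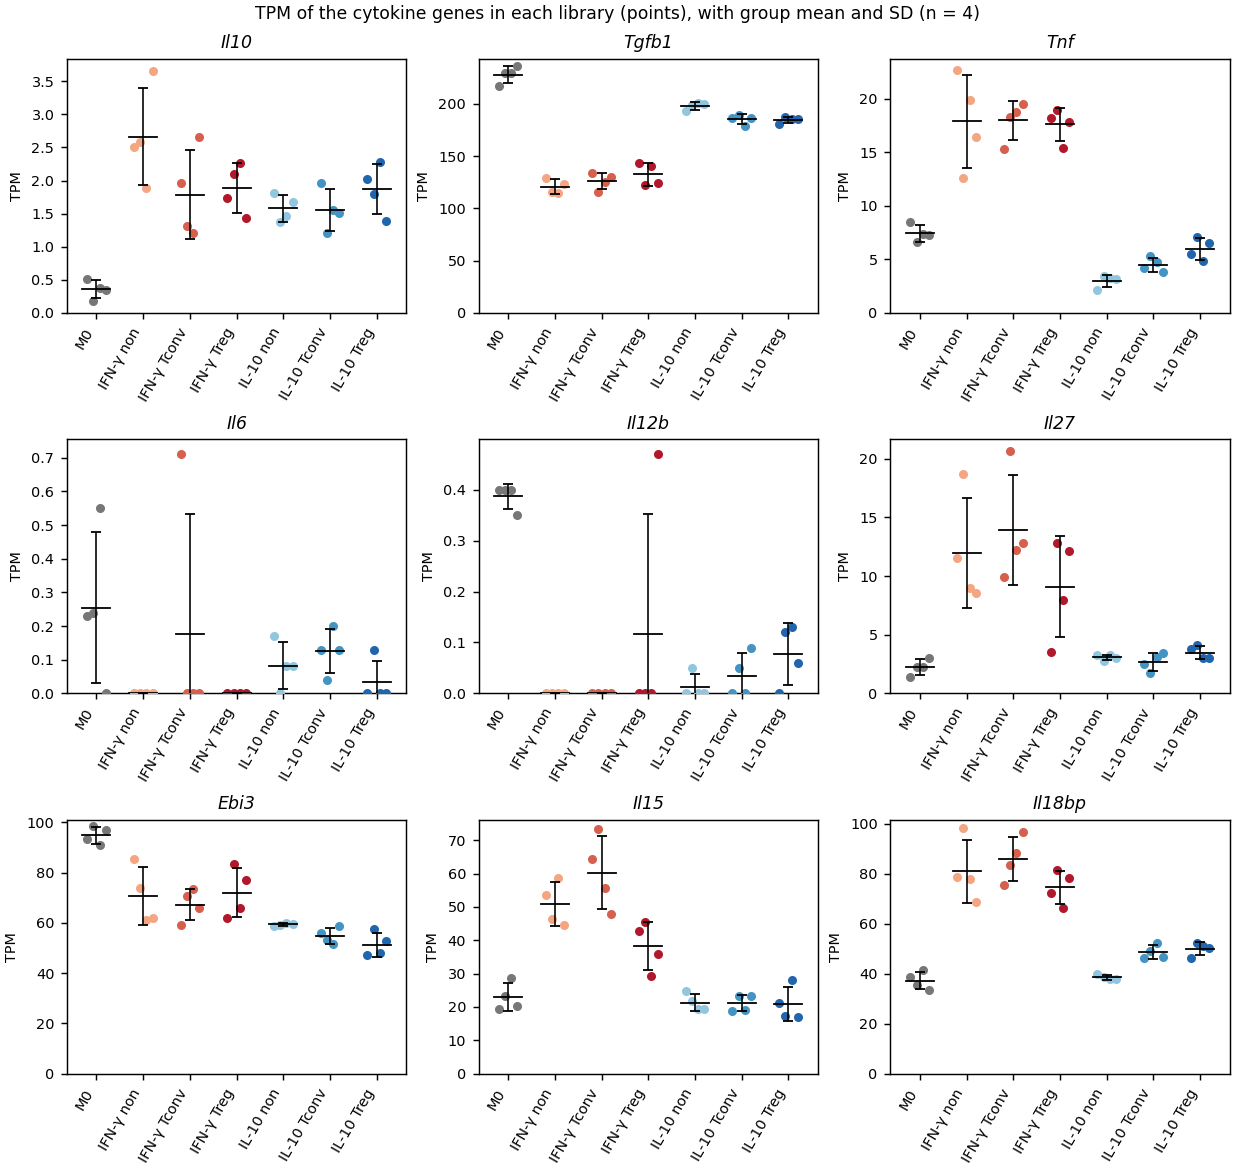
TPM (vertical axes, each from 0) of the 9 cytokine genes in each library (points) of the 7 groups, with the group mean and SD (n = 4). Tgfb1 was highest in M0 and lowest under IFN-γ, Tnf, Il27, Il15 and Il18bp were highest under IFN-γ, and Il6 and Il12b stayed at or below 0.71 TPM throughout.

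Il6 and Il12b were near 0 in every group. Il6, which encodes interleukin-6 and lies on chromosome 5 at 30013114 to 30019981, plus strand (all positions are those of the GENCODE vM21 gene on mm10), reached at most 0.71 TPM and was listed above 0 in 12 of 28 libraries. In M0 it was at 0.23, 0.24, 0.55 and 0 TPM. Under IFN-γ it was listed at 0 in 11 of 12 libraries, and 1 Tconv-phagocytic library (BV421-1) held 0.71 TPM, about 4.7 reads.

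Il12b, which encodes the p40 subunit shared by IL-12 and IL-23 (chromosome 11 at 44400063 to 44414033, plus strand), reached at most 0.47 TPM and was above 0 in 11 of 28 libraries. In the 4 M0 libraries it was at 0.40, 0.40, 0.40 and 0.35 TPM, or about 7.2 to 10.3 reads. It was listed at 0 in all 4 IFN-γ non-phagocytic libraries and at 0, 0.05, 0 and 0 TPM in the IL-10 non-phagocytic ones. All 4 M0 libraries were thus above both non-phagocytic groups (exact two-sided permutation test, p = 0.02857 for each, the smallest that 4 against 4 libraries can give, unadjusted and among 20 such tests of Il6 and Il12b). With no filter on low values, the adjusted p was 2.45e-06 for IFN-γ and 2.12e-05 for IL-10 (limma, Benjamini-Hochberg). Most values within each group were tied or at 0, so these p-values rest on almost no spread between libraries. At the depth of the IFN-γ non-phagocytic libraries, however, the M0 level of Il12b would be worth only 1.9 to 2.3 reads, against 5.3 to 8.2 reads in the IL-10 ones. The other chains that pair with p40 were near 0 as well, apart from Il12a at 1.26 TPM in 1 of 4 IFN-γ Tconv-phagocytic libraries. Il12a was also above 0 in 1 of 4 M0 and 2 of 4 IL-10 Tconv-phagocytic libraries. Il23a was above 0 in 2 of 4 M0, IFN-γ Tconv-phagocytic and IL-10 non-phagocytic libraries each, and in 1 of 4 IL-10 Tconv-phagocytic ones. It reached at most 0.27 TPM. Neither gene was above 0 in IFN-γ non-phagocytic libraries.

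IFN-γ and IL-10 macrophages were compared in each of the 3 populations. In non-phagocytic cells all 7 tested members passed the test, 6 higher and 1 lower under IFN-γ, where 51.4% of all 13631 tested genes were called, 25.5% higher and 25.8% lower. No member's libraries overlapped between these groups, as for 53.9% of all genes. In Tconv-phagocytic cells 6 of 7 passed (52.5% of all genes, 26.1% higher and 26.4% lower) and in Treg-phagocytic cells 6 of 7 (38.8%, 16.6% higher and 22.2% lower), in both cases 5 higher and Tgfb1 lower. The median difference of the 7 members was 1.32, 0.96 and 0.79 on the log2 scale in the 3 populations, against -0.02, -0.02 and -0.09 over all tested genes. Against M0, 6 of 7 members were called in IFN-γ non-phagocytic cells, 5 higher and 1 lower (53.1% of all genes, 26.4% higher and 26.7% lower). In IL-10 non-phagocytic cells 4 of 7 were called, 1 higher and 3 lower (26.6%, 13.7% higher and 12.9% lower). All comparisons with M0 share its 4 libraries, and those with IL-10 or IFN-γ non-phagocytic cells share theirs. The T cell marker list moved with the first 4 of these contrasts: 15 of 15 markers were higher under IFN-γ than under IL-10 in each population, and 15 of 15 higher than in M0. Between IL-10 non-phagocytic cells and M0, 0 of 15 T cell markers were called. Other lists moved as well between IFN-γ and IL-10 non-phagocytic cells. Dendritic cells are known to express Il15, Il27 and Ebi3, and the 7 dendritic cell markers summed to 8.84 to 22.6 TPM under IFN-γ and 2.96 to 4.00 under IL-10, with 2 of 2 tested markers higher and Flt3 and Siglech at 0 in the IFN-γ libraries. B cell markers were higher in 4 of 5 tested (8.48 to 13.9 against 2.17 to 4.10 TPM) and neutrophil markers in 2 of 3 (51.2 to 68.0 against 31.7 to 36.3 TPM, with Ly6g at 0 in both groups). Fibroblast markers were lower in 4 of 5. The part of these cells' transcripts in the member differences was not tested. Without scaling, the split of calls over all genes moved (2369 of 7917 called genes higher in non-phagocytic cells, against 3481 of 7002), and so it did in Tconv-phagocytic (2809 of 7493, against 3553 of 7150) and Treg-phagocytic cells (1556 of 6379, against 2264 of 5287) and for IFN-γ against M0 (2560 of 8132, against 3592 of 7233). Every member called in these comparisons kept its direction without scaling.

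**Figure D2:**
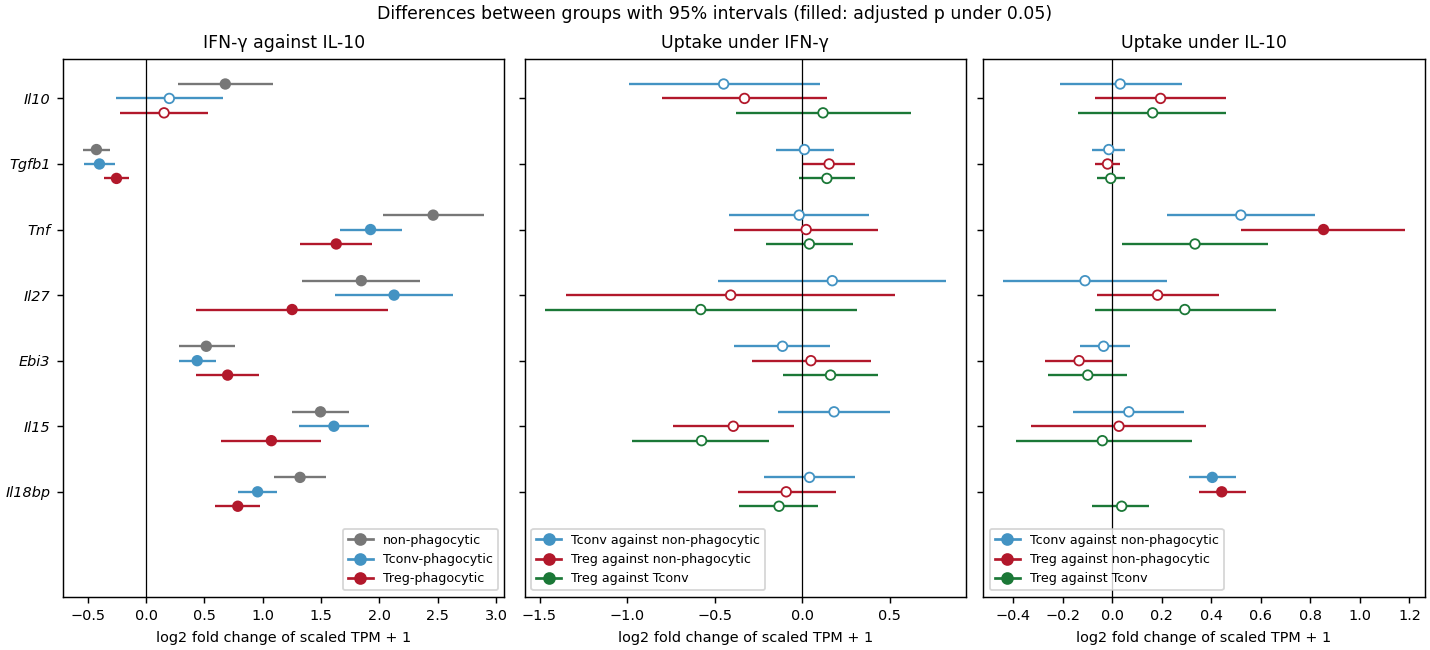
Log2 fold changes (horizontal axes, of scaled TPM + 1) with 95% intervals for the 7 tested members, filled where the adjusted p was under 0.05. Left, IFN-γ against IL-10 in 3 populations; middle and right, uptake under IFN-γ, where no member was called, and under IL-10, where Il18bp and Tnf were.

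Tnf encodes tumour necrosis factor, the cytokine that starts much of the acute inflammatory response. It lies on chromosome 17 at 35199381 to 35202007, minus strand. In non-phagocytic macrophages it was at 22.7, 12.6, 19.9 and 16.5 TPM under IFN-γ and at 2.17, 3.46, 3.25 and 3.17 TPM under IL-10. M0 libraries lay between them at 8.51, 6.62, 7.38 and 7.24 TPM, and no library of one of these groups reached the range of another.

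The Tnf difference between IFN-γ and IL-10 was 2.46 ± 0.19 (SE, log2 scale, adjusted p = 8.06e-06, limma with Benjamini-Hochberg adjustment). Relative to M0, Tnf rose by 1.39 ± 0.17 under IFN-γ (adjusted p = 0.000169) and fell by 1.07 ± 0.12 under IL-10 (adjusted p = 0.000239). With a pseudocount of 5 the difference under IL-10 was -0.61. T cell markers were at 86.9 to 103.3 TPM in the IL-10 libraries and at 151.6, 57.1, 84.6 and 46.1 TPM in M0. Among tested markers, 2 of 3 for neutrophils and 3 of 5 for fibroblasts were lower under IL-10 than in M0, and 0 higher. The part of other cells' transcripts in the Tnf fall was not tested. The difference between IFN-γ and IL-10 was 1.92 ± 0.12 in Tconv-phagocytic cells (adjusted p = 1.58e-06) and 1.63 ± 0.135 in Treg-phagocytic cells (adjusted p = 4.07e-05).

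The sequence upstream of Tnf is shown because Tnf had the largest difference between IFN-γ and IL-10 non-phagocytic cells among the members. It is the 250 bases before the RefSeq start (GRCm38.p6, chr17:35202008-35202257, minus strand), with the letters of a TATA motif in capitals.
Tnf: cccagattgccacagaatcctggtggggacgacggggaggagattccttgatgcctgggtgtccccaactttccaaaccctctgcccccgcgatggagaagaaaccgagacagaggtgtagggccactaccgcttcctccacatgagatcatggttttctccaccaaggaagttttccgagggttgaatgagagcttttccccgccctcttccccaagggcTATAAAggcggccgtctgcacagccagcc
The letters TATAAA stand at -29 to -24 from the start, and 12.4% of 32851 mouse promoter windows of this length hold them on either strand.

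Il27 encodes the p28 chain of interleukin-27 and Ebi3 its partner chain, a cytokine that can both prime and restrain T cells. Il27 lies on chromosome 7 at 126589010 to 126594941, minus strand, and Ebi3 on chromosome 17 at 55952640 to 55957022, plus strand. Il27 was at 11.5, 18.7, 9.02 and 8.55 TPM in IFN-γ non-phagocytic libraries and at 3.23, 2.80, 3.27 and 3.02 TPM in the IL-10 ones. In Tconv-phagocytic libraries it was at 9.96, 20.7, 12.2 and 12.8 TPM under IFN-γ and at 1.74 to 3.40 TPM under IL-10. All IFN-γ libraries of these populations lay above all IL-10 ones, with differences of 1.85 ± 0.22 (adjusted p = 0.000137) and 2.13 ± 0.23 (adjusted p = 5.19e-05) on the log2 scale (limma).

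Treg-phagocytic libraries held Il27 at 3.54, 12.8, 7.92 and 12.1 TPM under IFN-γ and at 3.75, 4.14, 2.98 and 3.02 TPM under IL-10. The lowest IFN-γ library (Ax647-1) lay inside the IL-10 range, and the difference was 1.252 ± 0.36 (adjusted p = 0.0239). That call was lost, at adjusted p of 0.0527 to 0.0656, without any 1 of 5 libraries: Ax647-2 or BV421-2 of the IFN-γ group, or Ax647-1, BV421-1 or BV421-2 of the IL-10 group. A pseudocount of 5 gave 1.19, 1.36 and 0.81 in non-phagocytic, Tconv- and Treg-phagocytic cells, all called. The Treg-phagocytic call was also lost with no filter on low values (1.21, adjusted p = 0.0812). Relative to M0 (1.39 to 3.05 TPM), Il27 rose by 2.19 ± 0.26 in IFN-γ non-phagocytic cells (adjusted p = 0.000134), or by 1.34 with a pseudocount of 5. The IL-10 difference from M0 was 0.34 (adjusted p = 0.135), and without M0 replicate 4 it was 0.46 (adjusted p = 0.0397).

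Ebi3 was far more abundant and had another order of groups. It was highest in M0, at 93.3, 98.4, 90.8 and 96.8 TPM, followed by the IFN-γ groups at 59.2 to 85.5 TPM and the IL-10 groups at 47.1 to 60.02 TPM. M0 stood above every other library. Ebi3 fell by 0.68 ± 0.03 in IL-10 non-phagocytic cells relative to M0 (adjusted p = 1.4e-06). For IFN-γ the difference from M0 was -0.16 ± 0.11 (adjusted p = 0.231), but it was -0.43 (adjusted p = 0.00598) without scaling and -0.26 (adjusted p = 0.0229) without IFN-γ non-phagocytic replicate 1.

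Ebi3 was higher under IFN-γ than under IL-10 by 0.52 ± 0.105 in non-phagocytic, 0.44 ± 0.07 in Tconv-phagocytic and 0.70 ± 0.12 in Treg-phagocytic cells (adjusted p = 0.00303, 0.000764 and 0.00196). The non-phagocytic difference was 0.23 without scaling (adjusted p = 0.0755) and the Tconv-phagocytic one 0.29, a setting in which the median of all genes was -0.26 and -0.15. The ratio of Ebi3 to Il27 TPM therefore differed widely between groups. Its geometric mean was 44.2 in M0, 19.3, 21.1 and 14.9 in the IL-10 non-phagocytic, Tconv- and Treg-phagocytic groups, and 6.16, 5.004 and 8.80 in the matching IFN-γ groups. Treg-phagocytic libraries overlapped, with ratios of 6.35 to 17.53 under IFN-γ and 12.57 to 17.44 under IL-10.

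The Ebi3 upstream window (GRCm38.p6, chr17:55952373-55952622, plus strand) is shown beside that of Il6 because these were the members whose window held an NF-κB motif. Capitals mark the motif, which is GGG, any 2 bases, TT, any 1 base and CC, in each 250-base window, and the Il6 window is chr5:30012864-30013113, plus strand.
Ebi3: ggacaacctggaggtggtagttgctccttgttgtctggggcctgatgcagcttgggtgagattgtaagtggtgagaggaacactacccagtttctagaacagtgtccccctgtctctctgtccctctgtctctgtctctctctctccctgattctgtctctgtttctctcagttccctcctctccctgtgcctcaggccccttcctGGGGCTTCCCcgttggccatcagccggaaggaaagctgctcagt
Il6: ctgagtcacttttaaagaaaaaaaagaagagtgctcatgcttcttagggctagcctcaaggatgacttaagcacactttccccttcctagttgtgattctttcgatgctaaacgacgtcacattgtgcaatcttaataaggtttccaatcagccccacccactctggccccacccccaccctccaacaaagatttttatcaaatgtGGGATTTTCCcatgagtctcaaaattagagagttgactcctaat
Both matches lie at -44 to -35 from the RefSeq start. Ebi3 was at 47.1 TPM or more in every library and Il6 at 0.71 or less, and the motif occurs in 4.11% of all 32851 windows. A motif match describes the letters alone. RefSeq windows were at hand for 6 of the 9 members, and none of the 6 held the GAS motif TTCNNNGAA (7.02% of all windows, either strand) or the ISRE motif, GAAA and GAAA with any 2 bases between them (2.98%). Il10, Il27 and Il15 had no window and were not searched. The Il18bp window lies inside the GENCODE gene and overlaps an Il18bp exon, so the sequence before that gene's GENCODE start was not searched.

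**Figure D3:**
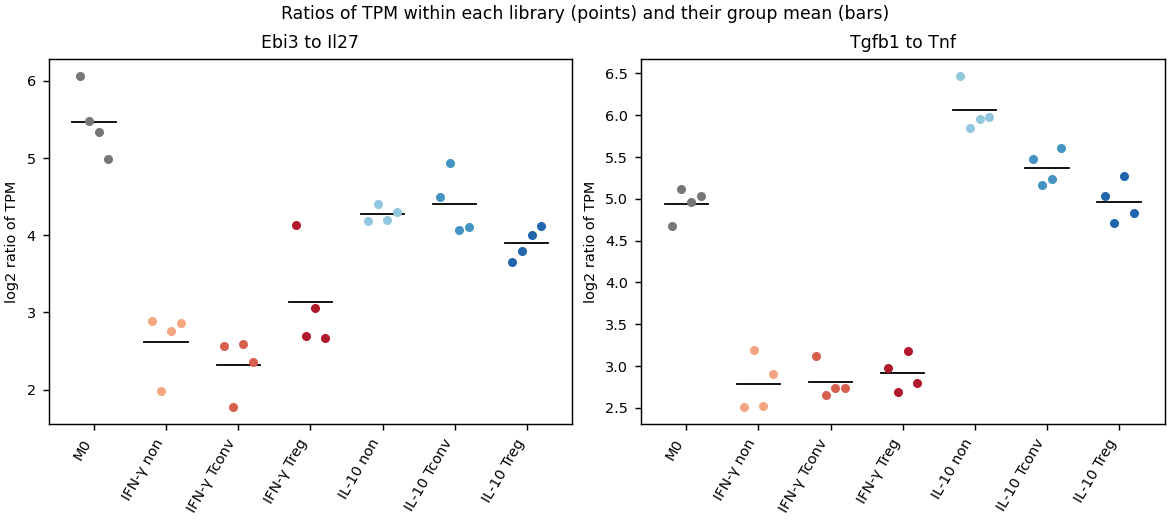
Log2 ratio of TPM (vertical axes) of Ebi3 to Il27 and of Tgfb1 to Tnf within each library (points), with the group mean (bar, n = 4). Both mean ratios were lowest in the IFN-γ groups, and Tgfb1 to Tnf was highest in IL-10 non-phagocytic libraries. After Treg uptake the Ebi3 to Il27 ratios overlapped, at 2.67 to 4.13 under IFN-γ and 3.65 to 4.12 under IL-10.

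Il15 encodes interleukin-15, which supports NK cells and memory CD8 T cells, and lies on chromosome 8 at 82331632 to 82403222, minus strand. It was at 53.7, 46.4, 58.8 and 44.7 TPM in IFN-γ non-phagocytic libraries, against 24.7, 21.9, 19.3 and 19.3 TPM under IL-10 and 19.4, 23.4, 28.6 and 20.3 TPM in M0. IFN-γ libraries stood apart from both, and those of IL-10 and M0 overlapped. Il15 was higher under IFN-γ than under IL-10 by 1.495 ± 0.11 (adjusted p = 4.89e-06) and than in M0 by 1.39 ± 0.13 (adjusted p = 3.63e-05), on the log2 scale.

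Il15 was the member that came nearest to a difference between the 2 T cell types. Under IFN-γ it was at 64.2, 73.2, 55.7 and 48.0 TPM in Tconv-phagocytic and 42.7, 45.4, 29.3 and 35.8 TPM in Treg-phagocytic libraries, so all 4 Treg-phagocytic libraries lay below all 4 Tconv-phagocytic ones (17.7% of all genes did not overlap here). The difference was -0.58 (95% interval -0.97 to -0.19, adjusted p = 0.066, unadjusted p = 0.0091, limma), just outside the threshold. It passed in 4 alternatives, at adjusted p of 0.00671 to 0.0435: all 28 libraries in 1 model, a filter of 5 TPM, no scaling, and a block for the file number. Of these, the model of all 28 libraries takes 1 variance for all groups, which is too small for the more variable IFN-γ groups. The Il15 difference did not pass in the other alternatives, at adjusted p of 0.0582 to 0.545. Among them were a variance weight per group (adjusted p = 0.184) and a block for the titles' dye and number (adjusted p = 0.162). With 2 libraries of each group, the difference was -0.17 among those with Ax647 in the title and -0.98 among those with BV421, and neither passed. Under IL-10, Il15 lay between 16.9 and 28.02 TPM in all 3 populations. The Treg against Tconv difference of Il15 under IFN-γ minus that under IL-10 was -0.54 (adjusted p = 0.17).

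Between IFN-γ and IL-10, Il15 differed by 1.61 ± 0.13 in Tconv-phagocytic cells (adjusted p = 1.14e-05) and by 1.07 ± 0.19 in Treg-phagocytic cells (adjusted p = 0.00236). The lowest IFN-γ Treg-phagocytic library held 29.3 TPM and the highest IL-10 one 28.02 TPM, so these groups nearly met.

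Transcription factors with a known part in cytokine genes did differ in that contrast. Of 24 cytokine gene regulators, 6 fell and 1 rose in Treg- against Tconv-phagocytic cells under IFN-γ, where 8.3% of all genes fell and 3.25% rose. Irf1, an interferon regulatory factor, fell by 1.14 (adjusted p = 0.00251) and Rel, an NF-κB subunit, fell by 0.89 (adjusted p = 0.00635). Cebpb rose by 0.18 (adjusted p = 0.0478). Mean Irf1 levels were 243.8 ± 39.3 TPM after Tconv uptake and 104.7 ± 14.4 TPM after Treg uptake (SD, n = 4). Of 15 T cell markers 0 were called, and their sums were 629.3 to 1037 TPM after Treg and 667.6 to 856.0 TPM after Tconv uptake. Of 10 macrophage markers 5 were higher and 1 lower after Treg uptake, with sums of 21030 to 21540 against 16750 to 19100 TPM. Among tested markers, 1 of 2 for dendritic cells was lower and 1 of 5 for B cells higher. The part of cell composition in these differences was not tested.

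Il10 encodes interleukin-10, which restrains macrophage activation, and lies on chromosome 1 at 131019845 to 131024974, plus strand. It was the lowest of the 7 tested members, and M0 was the only group with a mean under 1 TPM, at 0.51, 0.18, 0.38 and 0.35 TPM. All other libraries held 1.2 TPM or more. IFN-γ non-phagocytic libraries had 2.51, 2.58, 1.89 and 3.66 TPM and IL-10 non-phagocytic ones 1.81, 1.37, 1.46 and 1.67 TPM.

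Relative to M0, Il10 rose by 1.56 ± 0.18 in IFN-γ (adjusted p = 0.000135) and by 0.88 ± 0.10 in IL-10 non-phagocytic cells (adjusted p = 0.000224). The IFN-γ cells held more than the IL-10 cells, by 0.68 ± 0.18 (adjusted p = 0.0118, limma), and the 2 groups did not overlap. At such low levels the size depends on the pseudocount: with 0.1 and 5 in place of 1 the 3 differences were 2.85 and 0.57, 1.89 and 0.27, and 0.96 and 0.30, all still called. Under IFN-γ the Tconv-phagocytic libraries held 1.97, 1.31, 1.21 and 2.66 TPM and the Treg-phagocytic ones 1.74, 2.10, 2.27 and 1.43 TPM. Under IL-10 the Tconv-phagocytic libraries held 1.96, 1.2, 1.55 and 1.51 TPM and the Treg-phagocytic ones 2.03, 1.79, 2.28 and 1.39 TPM, so the cytokine groups overlapped after either uptake. In Tconv-phagocytic cells the difference was 0.20 (95% interval -0.26 to 0.66) and in Treg-phagocytic cells 0.15 (-0.22 to 0.53), neither called. These levels rest on few reads: about 3.0 to 5.9 per library in M0, 3.9 to 13.7 under IFN-γ and 14.8 to 29.6 under IL-10. T cell markers were at 535.8 to 921.2 TPM in the IFN-γ non-phagocytic libraries that held the most Il10, and their part was not tested.

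**Figure D4:**
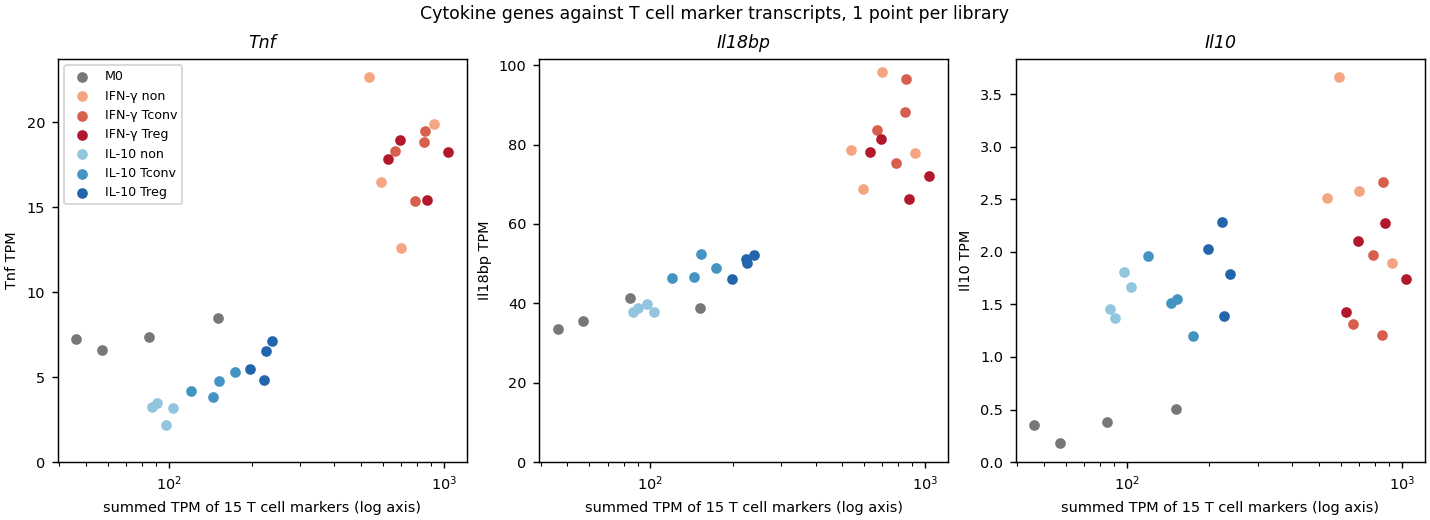
TPM of Tnf, Il18bp and Il10 (vertical axes) against the summed TPM of 15 T cell markers (horizontal log axis), 1 point per library. IL-10 libraries spread from 86.9 to 237.7 TPM of T cell markers, with Tnf between 2.17 and 7.14 TPM, and all IFN-γ libraries lay at 535.8 TPM or more.

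Tgfb1, which encodes TGF-β1 (chromosome 7 at 25687002 to 25705077, plus strand), was the most abundant member and the one that was lower under IFN-γ. It was at 216.7, 229.5, 229.3 and 236.6 TPM in M0, 192.7, 198.5, 201.0 and 199.4 TPM in IL-10 non-phagocytic and 129.1, 115.2, 114.4 and 123.8 TPM in IFN-γ non-phagocytic libraries. The 3 groups did not overlap. Relative to M0, Tgfb1 fell by 0.64 ± 0.06 under IFN-γ (adjusted p = 2.33e-05) and by 0.22 ± 0.04 under IL-10 (adjusted p = 0.00208).

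Between IFN-γ and IL-10 the Tgfb1 difference was -0.43 ± 0.05 in non-phagocytic, -0.40 ± 0.06 in Tconv-phagocytic and -0.25 ± 0.05 in Treg-phagocytic cells (adjusted p = 0.000149, 0.000318 and 0.0029, limma). Without scaling it was -0.71 in non-phagocytic and -0.48 in Treg-phagocytic cells. Under IL-10, both phagocytic groups held less Tgfb1 TPM than the non-phagocytic group in every library (178.5 to 189.8 against 192.7 to 201.0). Without scaling the median of all genes was -0.06 for Tconv- and -0.07 for Treg-phagocytic cells, and after scaling the Tgfb1 differences were -0.01 and -0.02. The geometric mean ratio of Tgfb1 to Tnf TPM was 30.8 in M0, 66.7, 41.3 and 31.2 in IL-10 non-phagocytic, Tconv- and Treg-phagocytic groups, and 6.88, 7.03 and 7.53 in the matching IFN-γ groups.

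The Tgfb1 upstream window (GRCm38.p6, chr7:25686752-25687001, plus strand) is printed for contrast with that of Tnf, the member that moved most in the opposite direction. It has no capitals because it held none of the 4 motifs searched.
Tgfb1: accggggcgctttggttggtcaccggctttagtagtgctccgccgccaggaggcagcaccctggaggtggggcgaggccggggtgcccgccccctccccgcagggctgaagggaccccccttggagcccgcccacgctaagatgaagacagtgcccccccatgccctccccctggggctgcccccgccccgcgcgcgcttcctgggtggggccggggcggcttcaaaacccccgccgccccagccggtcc

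TGF-β1 is made in a latent form, and genes that hold or activate it were among those lower under IFN-γ. Of 13 tested genes for partner subunits, activation and release, 7 were lower and 1 higher in IFN-γ than in IL-10 non-phagocytic cells, where 25.8% of all genes were lower and 25.5% higher. Thbs1, whose product thrombospondin activates latent TGF-β, was at 55.2 ± 1.6 TPM under IFN-γ and 419.5 ± 4.1 TPM under IL-10 (SD, n = 4), a difference of -2.62 (adjusted p = 3.1e-10). Nrros, which tethers latent TGF-β1 to macrophages, differed by -1.39 (adjusted p = 7.92e-07), and Itgav, Furin and Ltbp3 were lower as well. The list also has genes that do not hold or activate TGF-β1, and of these Tgfb3, a separate TGF-β ligand, and Rhbdf2 were lower. Casp1, the protease that matures IL-18 and IL-1β, was higher by 0.47 (adjusted p = 0.000104). Fibroblasts also express Thbs1, Ltbp3 and Tgfb3, and fibroblast markers were lower under IFN-γ as well (4 of 5 tested, median -1.45), at 2.52 to 4.74 TPM against 42.2 to 48.2 TPM under IL-10. Their part was not tested.

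Receptor genes split in direction. Of 16 tested receptors of the 9 cytokines, 6 were higher and 8 lower in IFN-γ than in IL-10 non-phagocytic cells, where 25.5% of all genes were higher and 25.8% lower. Il2rb, a chain of the IL-15 receptor, was higher by 2.75 (adjusted p = 8.06e-06), Il12rb1 by 2.35 (adjusted p = 2.26e-05) and Il27ra by 2.03 (adjusted p = 7.43e-05). Tgfbr2 and Tgfbr1, the TGF-β receptors, were lower, at -0.97 and -0.90 (adjusted p = 1.71e-06 and 3.13e-05). T cells also express Il2rb, Il12rb1 and Il27ra, and the part of T cell transcripts in these differences was not tested.

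Il12rb1, a subunit of the IL-12 and IL-23 receptors, was the receptor gene with the largest fall in Treg- against Tconv-phagocytic cells under IFN-γ, by 1.58 (adjusted p = 0.00558). Its mean level was 12.9 ± 3.9 TPM without uptake, 13.2 ± 2.6 TPM after Tconv uptake and 3.67 ± 1.19 TPM after Treg uptake (SD, n = 4). Il10rb, a chain of the IL-10 receptor, rose by 0.39 (adjusted p = 0.0213). In all, 2 of 16 receptors rose and 3 fell there, where 3.25% of all genes rose and 8.3% fell.

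Il18bp encodes the secreted protein that binds and blocks IL-18, and lies on chromosome 7 at 102014885 to 102018690, minus strand. It was at 78.7, 98.3, 78.0 and 68.7 TPM in IFN-γ non-phagocytic libraries, against 39.9, 38.8, 37.8 and 37.8 TPM under IL-10 and 38.8, 35.5, 41.3 and 33.5 TPM in M0. The IFN-γ libraries stood clear of both other groups, which overlapped. Il18bp was higher under IFN-γ than under IL-10 by 1.32 ± 0.10 (adjusted p = 5.61e-06) and than in M0 by 1.36 ± 0.11 (adjusted p = 1.28e-05). The difference was 0.96 in Tconv-phagocytic and 0.79 in Treg-phagocytic cells (adjusted p = 7.19e-06 and 0.000157).

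Il18, whose product Il18bp blocks, was at 13.2 ± 5.7 TPM in IFN-γ and 10.8 ± 1.0 TPM in IL-10 non-phagocytic libraries (SD, n = 4), with no called difference. The geometric mean ratio of Il18bp to Il18 TPM was 3.36 in M0, 3.59 to 4.55 in the IL-10 groups and 5.83 to 6.62 in the IFN-γ groups. Single libraries ran from 3.08 to 5.15 under IL-10 and from 4.10 to 12.3 under IFN-γ. The cytokines thus overlapped across populations but not within a population.

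Uptake was then compared within each cytokine. Under IFN-γ, limma called 0 of 7 members between Treg- and Tconv-phagocytic cells (11.5% of all genes), 0 between Treg-phagocytic and non-phagocytic cells (7.73%) and 0 between Tconv-phagocytic and non-phagocytic cells (0.00734%, 1 gene). At an unadjusted p under 0.05 there were 1, 2 and 0 members. Tnf was at 15.5 to 19.0 TPM in Treg-phagocytic, 15.4 to 19.5 TPM in Tconv-phagocytic and 12.6 to 22.7 TPM in non-phagocytic libraries. The 95% interval of its Treg against Tconv difference was -0.21 to 0.29 on the log2 scale. Il27 had a wide interval for the same contrast, -1.47 to 0.31, with 3.54 to 12.8 TPM in Treg-phagocytic and 9.96 to 20.7 TPM in Tconv-phagocytic libraries. Tgfb1 was at 122.6 to 143.8 TPM in Treg-phagocytic, 115.3 to 133.6 in Tconv-phagocytic and 114.4 to 129.1 TPM in non-phagocytic libraries, which overlapped. With all 28 libraries in 1 model the Tgfb1 rise after Treg uptake passed against both (adjusted p = 0.0405 and 0.0297). That model takes 1 variance for all groups, which is too small for the more variable IFN-γ groups. With a variance weight per group neither Tgfb1 difference passed. Il18bp was at 66.2 to 81.4, 75.4 to 96.5 and 68.7 to 98.3 TPM in the 3 groups, with a Treg against Tconv interval of -0.36 to 0.09.

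Under IL-10, Il18bp was higher after either uptake and Tnf after uptake of Treg cells. Tnf was at 5.49, 7.14, 4.81 and 6.53 TPM in Treg-phagocytic, 4.16, 5.30, 4.75 and 3.84 TPM in Tconv-phagocytic and 2.17, 3.46, 3.25 and 3.17 TPM in non-phagocytic libraries. Both phagocytic groups lay above the non-phagocytic one and overlapped with each other. For Treg-phagocytic cells 2 of 7 members were called, both higher (11.3% of all genes, 6.82% higher, 21.6% without overlap), with Tnf higher by 0.85 ± 0.14 (adjusted p = 0.00753) and Il18bp by 0.44 ± 0.04 (adjusted p = 0.000516). With a pseudocount of 5 the Tnf difference was 0.47, still called. For Tconv-phagocytic cells 1 of 7 was called (6.08%, 4.31% higher, 16.9% without overlap), Il18bp at 0.40 ± 0.04 (adjusted p = 0.00145), while the Tnf difference was 0.52 ± 0.13 (adjusted p = 0.0566). That Tnf difference passed with a variance weight per group (adjusted p = 0.00128), a pseudocount of 5 (0.0475) and a filter of 5 TPM (0.0418).

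Il18bp was at 46.2, 52.2, 51.2 and 50.3 TPM in IL-10 Treg-phagocytic and 46.4, 49.0, 52.3 and 46.7 TPM in IL-10 Tconv-phagocytic libraries, above all 4 non-phagocytic libraries (37.8 to 39.9). Between Treg- and Tconv-phagocytic cells under IL-10, 0 of 7 members were called (limma, 1.38% of all genes), and Tnf alone had an unadjusted p under 0.05 (0.33, 95% interval 0.04 to 0.63). T cell marker sums had the same order of groups as mean Tnf: 15 of 15 T cell markers were higher in Treg-phagocytic and 8 of 15 in Tconv-phagocytic than in non-phagocytic cells. The part of T cell transcripts in the Tnf and Il18bp differences was not tested.

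The remaining 5 tested members were not called for uptake under IL-10. Il10 differed by 0.20 for Treg-phagocytic cells (95% interval -0.07 to 0.46) and 0.03 for Tconv-phagocytic cells (-0.21 to 0.28). Ebi3 was lower in TPM in every phagocytic library (47.1 to 58.6) than in every non-phagocytic one (58.9 to 60.02). For Treg-phagocytic cells its scaled difference was -0.13 (adjusted p = 0.2), and it passed without scaling (-0.21, adjusted p = 0.0472) and without Treg-phagocytic library Ax647-2 (-0.19, adjusted p = 0.0418).

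Some genes of the TGF-β system, a ligand among them, differed between the T cell types under IL-10. Of the 13 partner genes, 3 were lower and 0 higher in Treg- than in Tconv-phagocytic cells, where 0.924% of all genes were lower and 0.455% higher. Tgfb3, another TGF-β ligand, fell by 1.43 (adjusted p = 9.23e-05), Thbs1 fell by 0.365 (adjusted p = 2.97e-05) and Lrrc32 fell by 0.68 (adjusted p = 0.0151). Fibroblast markers, which include collagen genes, moved the same way: they summed to 13.9 to 16.9 TPM in Treg-phagocytic and 75.9 to 81.9 TPM in Tconv-phagocytic libraries, with 5 of 5 tested markers lower and Lum at 0. Their part in these differences was not tested.

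The difference of the uptake effect between IFN-γ and IL-10 was tested directly. For Treg-phagocytic against non-phagocytic cells, 2 of 7 members were called (9.53% of all genes, 7.64% lower): Tnf at -0.83 ± 0.24 (adjusted p = 0.0397) and Il18bp at -0.53 ± 0.13 (adjusted p = 0.0174) as IFN-γ minus IL-10. Under IFN-γ the Treg-phagocytic minus non-phagocytic difference was 0.02 for Tnf and -0.09 for Il18bp, neither called, against 0.85 and 0.44 under IL-10. T cell markers moved the same way in this contrast, with 5 of 15 lower, 0 higher and a median of -0.71, and their part in it was not tested. The Tnf call was lost in 4 other settings and without any 1 of 11 of the 16 libraries, with adjusted p up to 0.122. It held without IFN-γ or IL-10 non-phagocytic replicate 2, IFN-γ Treg-phagocytic Ax647-2 or BV421-2, or IL-10 Treg-phagocytic BV421-1. The Il18bp call was lost with no filter on low values (adjusted p = 0.0528). For Treg- against Tconv-phagocytic cells 0 of 7 were called (limma, 13.1% of all genes, 1 member at an unadjusted p under 0.05). For Tconv-phagocytic against non-phagocytic cells 0 of 7 were called (1.71%, 2 members at an unadjusted p under 0.05).

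The genes whose log2 levels most resembled those of each member over the 28 libraries were listed by Pearson's r, as a description. The 28 libraries share their groups and the depth differences between them. Tnf was most like Itgal (r = 0.97), Stmn1 (0.97) and Plau (0.97). Itgal encodes an integrin of leukocytes including T cells. Il18bp was most like Atp6v0e (0.98), Ccl5 (0.97) and Sat1 (0.97), and Ccl5 is a chemokine of macrophages and T cells. Il15 was most like H2-T23 (0.96), Cep85 (0.95) and B4galt1 (0.95), and Il27 like Dedd2 (0.96), Amdhd2 (0.96) and Serpina3f (0.96). Tgfb1 was most like Ctsd (0.97), which encodes a lysosomal protease, Plin2 (0.96), which coats lipid droplets, and Prep (0.96). Ebi3 was most like Capg (0.92), Tmem158 (0.91) and Cdkn1c (0.90). Il10 had the lowest values, with Alox5ap (0.89), Icam1 (0.88) and Tspo (0.87).

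The labels of the cytokine treatments were checked with genes known to respond to them. In IFN-γ non-phagocytic cells 6 of 6 IFN-γ response genes were higher than in M0, against 26.4% of all genes. Gbp2 was higher by 5.78 (adjusted p = 3.66e-08) and Cxcl9 by 3.71 (adjusted p = 1.19e-05). In IL-10 non-phagocytic cells 5 of 5 tested IL-10 response genes were higher than in M0, against 13.7% of all genes. Socs3 was higher by 5.13 (adjusted p = 6.68e-08) and Il4ra by 2.39 (adjusted p = 6.88e-10). The lists were not exclusive: 3 of 6 IFN-γ response genes were higher than in M0 in IL-10 cells, and 2 of 5 IL-10 response genes in IFN-γ cells. Under IFN-γ, 4 of 6 IFN-γ response genes were lower in Treg- than in Tconv-phagocytic cells (median -1.16), where 8.3% of all genes were lower.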

How the data were processed

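RNA of 28 mouse macrophage libraries was sequenced. Per the labels' protocols, RNA was extracted with RNAiso PLUS and poly(A) libraries were made with a NEBNext Ultra II Directional kit, and the submitters' processing notes name STAR, RSEM and mm10. The deposited values are TPM per Ensembl gene ID. No read counts were at hand, so relative depth was read from the step that 1 read makes in low TPM values, with read numbers as estimates.

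TPM were scaled by an unweighted trimmed mean of ratios (30% of ratios and 5% of levels trimmed at each end), and log2(TPM + 1) was tested with limma 3.58.1 (R 4.3.3; lmFit, eBayes with trend) in only the groups compared. Fold changes are on this scale and understate changes of low genes. The test covered the 13631 genes that reached 1 TPM in 4 or more libraries, with calls at a Benjamini-Hochberg adjusted p under 0.05. Il6 and Il12b were tested by exact permutation. The fit was tested on simulated data. Alternatives were another fit, pseudocount, filter, scaling, dye, a replicate block and each library left out. The named genes were all 9 members, check genes, the 3 most like genes of each member, and from each list the largest called rise and fall and the direct receptor or partner of a member. Other list genes were named after their values were seen. The members and lists were chosen with earlier results of these data known. Gene symbols came from GENCODE vM21 for 55141 IDs, and 346 IDs had none. No pair of libraries of 378 was identical, and no library was left out. 1 gene is not reported here.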

Additional observations from a re-analysis of the deposited data

Results flagged for a closer look

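The uptake effect of Treg cells was called different between IFN-γ and IL-10 for 2 of 7 members (9.53% of all genes, 7.64% lower), by a test of the difference itself. It was -0.83 on the log2 scale for Tnf (adjusted p = 0.0397) and -0.534 for Il18bp (adjusted p = 0.0174), limma. T cell markers moved with them (5 of 15 lower, median -0.71), and the Tnf call was lost in 15 of 24 alternatives, 11 of them with 1 library left out. Of 59 sets of 4 libraries, 5 held a library flagged as far from the others. In each of the 5, the other 3 libraries were tied, which triggers the rule at any distance. Its chance rate of about 5% therefore does not apply to them. All 5 concerned Il6 or Il12b at levels near 0. Il6 was at 0.71 TPM in IFN-γ Tconv-phagocytic library BV421-1 and at 0.13 TPM in IL-10 Treg-phagocytic library Ax647-2, with the other 3 libraries of each group at 0. Il12b was at 0.47 TPM in IFN-γ Treg-phagocytic library BV421-2 and at 0.05 TPM in IL-10 non-phagocytic replicate 2, again with the others at 0. In M0, Il12b was at 0.35 TPM in replicate 4 and 0.40 in the other 3.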

How the results depend on the processing

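Of 1827 alternative values for single members, 1789 kept their direction and side of the threshold, 23 were no longer past it, 15 newly passed it and 0 called values changed sign. The number of members called for IFN-γ Treg- against Tconv-phagocytic cells went from 0 to 2 with all 28 libraries in 1 model, and to 1 with a filter of 5 TPM or no scaling. Over all genes, 4084 of 13631 were called in that 1 model, against 1574 in the main fit (only the groups compared). With the filter 1558 of 10044 genes were called, and without scaling 1611 of 13631. With the replicate block by file number 1 member was called (885 of all 13631 genes), though the numbers did not pair the libraries (0 pairs correlated over 0.1). For IFN-γ Treg-phagocytic against non-phagocytic cells 1 member was called with all 28 libraries in 1 model. Of all 13631 genes 3512 were called there, against 1053 in the main fit. Under IL-10, 4 members were called for Treg-phagocytic against non-phagocytic cells without scaling (2097 of 13631 genes, against 1544 in the main fit). For Tconv-phagocytic cells 2 were called with a variance weight per group, a pseudocount of 5 or a filter of 5 TPM. Over all genes those settings called 1222 of 13631, 811 of 13631 and 847 of 10044, against 829 of 13631 in the main fit. The difference of the Treg effect between cytokines had 1 member with a variance weight, a pseudocount of 5 or median-of-ratios scaling, 0 with no filter, and 1 to 2 with a library left out. Over all 13631 genes the first of these settings called 1261, 1285 and 1292, against 1299 in the main fit. With no filter 1157 of 26980 genes were called. The causes were not tested. A filter of 5 TPM removes Il10. Depth limits Il10, Il6 and Il12b under IFN-γ.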

Other observations

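Of 22 further cytokine genes, among them T cell products such as Il17a, 9 were tested, and 0 were higher and 4 lower in IFN-γ than in IL-10 non-phagocytic cells, where 25.5% of all genes were higher and 25.8% lower. Il1b, which encodes interleukin-1β, was at 14.0 ± 1.5 TPM in IL-10 non-phagocytic libraries, 2.81 ± 0.75 under IFN-γ and 2.44 ± 0.59 in M0 (SD, n = 4), and rose by 2.09 from M0 under IL-10 (adjusted p = 6.27e-06, limma). Tnfsf14, a ligand of the TNF family, was at 18.6 ± 1.3 TPM under IL-10 and 0.75 ± 0.33 TPM in M0, a rise of 3.42 (adjusted p = 4.64e-07). Csf1, the growth factor of macrophages, was at 16.7 ± 0.7 TPM in M0, 8.91 ± 1.2 in IL-10 non-phagocytic and 1.99 ± 0.95 in IFN-γ non-phagocytic libraries. Fibroblast marker sums had the same order, with means of 64.5, 44.8 and 3.33 TPM. Under IL-10, Csf1 was at 5.17 ± 1.05 TPM in Treg-phagocytic and 14.6 ± 1.1 TPM in Tconv-phagocytic libraries, a difference of -1.35 (adjusted p = 0.00105). Fibroblast markers moved with Csf1 there too, at 13.9 to 16.9 and 75.9 to 81.9 TPM, and their part in either pattern was not tested.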
